A study of Arabidopsis thaliana with 21 samples.

Results

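The genes described here are those whose signal was higher with a compound named only A than with a compound named only B, and higher with A than without it, in Arabidopsis seedlings. Members were chosen by group means of the measured signals: a probe set was taken when the mean log2 signal was at least 0.8 higher with A than with the solvent dimethyl sulfoxide (DMSO), at least 0.8 higher with A and the auxin indole-3-acetic acid (IAA/A) than with IAA alone, at least 0.7 higher with A than with B, and at least 0.7 higher with IAA/A than with IAA and B (IAA/B). Of 22746 probe sets, 136 passed these 4 cuts. Symbols of the HSP, CML, PUB, UGT73 and GSTU families and the genes Hop3, ROF2, ZAT10 and AT1G22810 were to be left out by name. From the 136 this took away 7, which are ROF2, PUB22, Hop3, ATHSP22.0, CML39, CML23 and AT1G22810, so that 129 members remained, 0.567% of all. The tables at hand pair 56 of the members with 1 gene and 3 with several genes, and list no gene for 70, so the named genes are fewer than the members. Those 70 could not be left out by name, so genes of these families may be among them.

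Expression was measured on 21 ATH1 arrays of total RNA from whole seedlings of Arabidopsis thaliana, recorded as Col-0 in the deposited array records. The seedlings were 7 days old, had grown in the light in liquid culture, and were treated for 1 h. The groups were DMSO (n = 4), 5 µM IAA (n = 4), 10 µM A (n = 4), 10 µM B (n = 3), 5 µM IAA with 10 µM A (n = 3) and 5 µM IAA with 10 µM B (n = 3). No mutant or transgene is named, the structures of A and B are not given in the sources used here, and each was used at a single dose and time. The labels do not tell whether replicate arrays stem from different cultures, and the p-values then measure only the spread between these RNA samples, which may be technical. In whole seedlings, fewer cells of a type and less RNA per cell cannot be told apart.

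The array record deposited for IAA 2 names B as its treatment, against its label, whereas the records of the other 20 arrays match their labels. Its values lay with the IAA arrays. The auxin-conjugating enzyme gene GH3.3 had a log2 signal of 13.3 in IAA 2, 12.8 to 13.2 in the other IAA arrays and 8.45 to 8.65 in the B arrays. The label was kept, and the main values that rest on IAA 2 are also given without it. Without IAA 2 the IAA mean over the members described below was 6.57, and their median difference between IAA/A and IAA was 1.82. Their median difference between IAA/B and IAA was then 0.58, and 77 were higher with IAA/B than with IAA without overlap. The cuts gave 130 members without IAA 2. The classes by B described below are given only with it. Array medians ran from 7.17 to 7.25, and arrays of a group correlated across probe sets at 0.978 or above. Along the first component of the residuals, A 2 (-36.0), DMSO 4 (31.4), DMSO 2 (-24.9) and IAA/B 1 (18.5) lay farthest out. The 4 measured shoot and photosynthesis markers had array means of 11.1 to 11.3 in every group, and the 5 measured root markers 9.65 to 11.2, so both parts of the seedling were represented.

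Plant cells that meet a reactive or protein-damaging chemical are known to induce chaperones, such as small heat shock proteins that hold unfolding proteins and DnaJ proteins that pass them to Hsp70, along with ubiquitin ligases that mark proteins for the proteasome. Rapid stress responses also include EF-hand proteins, which bind calcium, AP2/ERF and zinc finger transcription factors, and intracellular immune receptors of the TIR-NBS type. Auxin acts through a different route, in which IAA brings Aux/IAA repressors to the receptor TIR1 for degradation and so releases the ARF transcription factors.

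The members had low to middling signals in the solvent and high signals with A. All values are log2 signals as deposited, differences are between group means, and errors of a difference are standard errors (SE) from the model over all arrays. The mean over the 129 members was 6.96, 6.55, 6.50 and 6.98 in the DMSO arrays and 6.61, 6.63, 6.54 and 6.55 in the IAA arrays. With A it was 8.84, 8.61, 8.76 and 8.87, and with IAA/A 8.64, 8.65 and 8.55. With B it was 7.94, 7.33 and 7.37, and with IAA/B 7.57, 7.25 and 7.31. Every array with A thus lay above every array with B, and every array with B above every array without a compound. The groups came to 6.75 ± 0.26 (SD, n = 4) for DMSO, 6.58 ± 0.04 (SD, n = 4) for IAA, 8.77 ± 0.12 (SD, n = 4) for A, 7.55 ± 0.34 (SD, n = 3) for B, 8.61 ± 0.05 (SD, n = 3) for IAA/A and 7.38 ± 0.17 (SD, n = 3) for IAA/B. This order among the groups is what the cuts selected, and it is given without a test.

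**Figure D1:**
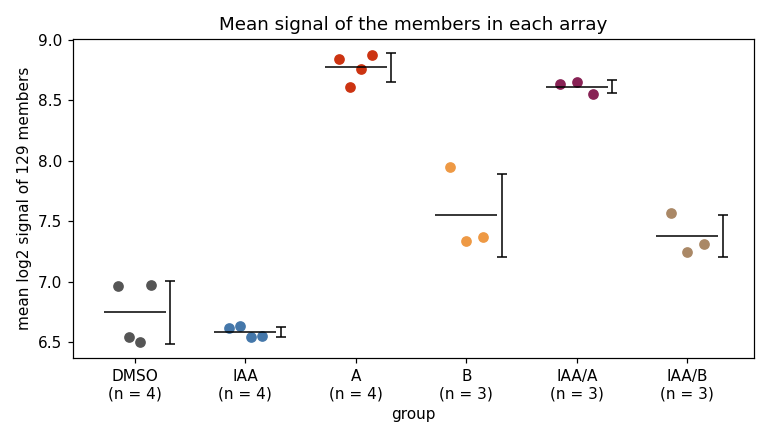
Mean log2 signal of the 129 members (vertical axis) in each array (points), by group; horizontal lines are group means and bars the SD over the arrays. The 7 arrays with A sit between 8.55 and 8.87, those with B between 7.25 and 7.94, and those with neither compound between 6.50 and 6.98.

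The same 4 differences, taken member by member, spread widely. The difference between A and DMSO had a median of 1.84 log2 units and ran from 0.81 to 4.93, and that between IAA/A and IAA had a median of 1.81 and ran from 0.81 to 4.85. Of the members, 53 were at least 2 log2 units higher with A than with DMSO, 20 of them at least 3, and 15 were under 1. A exceeded B by a median of 1.08 log2 units without IAA and by 1.08 with it, at most 3.2 in either case. With B the members stood a median of 0.61 above DMSO, within a range from -1.43 to 3.61, and with IAA/B a median of 0.57 above IAA. Over all probe sets, the corresponding medians lay within 0.04 of 0. For the median member, B gave 34.9% of the log2 difference that A gave, and 34.4% in the presence of IAA.

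Arrays of the compared groups did not overlap for 102 of the 129 members between A and DMSO (5.43% of all probe sets were higher with A without overlap), for 129 between IAA/A and IAA (11.7%), for 94 between A and B (8.96%) and for 109 between IAA/A and IAA/B (11.2%). These shares follow from the cuts. The members just inside the cuts were AT4G15420, 0.704 higher with A than with B, AT3G10020, 0.706 higher in the same difference, and AT4G19460, 0.806 higher with A than with DMSO. Just outside were AT5G63130 and a probe set with no gene listed, both 0.698 higher with IAA/A than with IAA/B, and another such probe set, 0.797 higher with A than with DMSO.

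B by itself divided the members into a graded series, and 3 classes were set after the values had been seen. In the first, 40 members were at least 0.8 log2 units higher with B too, both without and with IAA. They had a median difference of 2.97 between A and DMSO and of 1.88 between B and DMSO. Their 15 named genes include the small heat shock protein genes AT1G53540, AT1G54050, AT5G37670 and AT2G19310, Fes1A, the lignin-branch reductase gene CCR2 and the RING-type ubiquitin ligase genes AT1G26800 and AT1G14200. Without the array B 1, AT2G19310 and AT1G30070 of this class were 0.75 and 0.68 above DMSO with B, short of 0.8. In the second, 13 members were under 0.2 with B both without and with IAA, with a median of 1.3 between A and DMSO and -0.06 between B and DMSO. The 8 named genes of this class are HYH, SGT1A, BGLU27, AT3G53600, AT5G12340, AT5G15870, AT5G44350 and AT5G54300. The other 76 members lay between. In all, 59 members were higher with B than with DMSO without overlap of arrays (8.1% of all probe sets), and 74 with IAA/B than with IAA (11.6%). Since B and A were set against the same DMSO and IAA arrays, the responses are given side by side and not correlated.

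**Figure D2:**
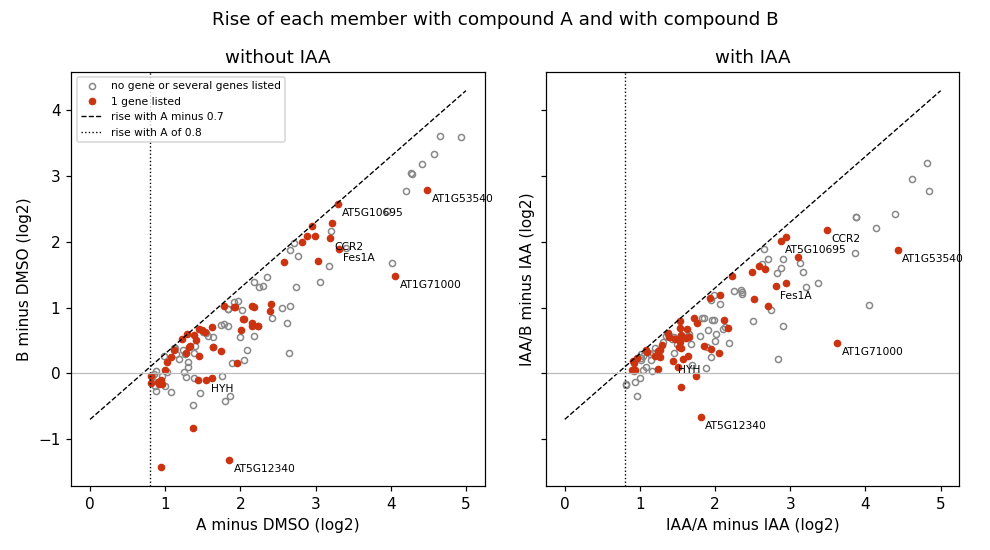
Log2 difference of each member with compound A (horizontal) and with compound B (vertical), against DMSO on the left and in the presence of IAA, against IAA, on the right; filled points have 1 gene listed. The dashed and dotted lines are cuts of the rule, so all members lie below the one and to the right of the other; AT5G12340 lies below 0 on the vertical axis in both panels, at -1.32 and -0.67.

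Chaperones and heat shock proteins formed the largest role group among the named members, with 11 genes, next to 10 metabolic enzymes. Roles were assigned after the members were known and cover 38 of the 56 named genes. They were not assigned to the other genes on the array, so no share over all genes is at hand. The median difference of the 11 genes was 2.83 between A and DMSO and 0.91 between A and B. Among them, AT1G71000, which encodes a protein with the DnaJ domain, cleared the cuts by more than any other member with 1 gene. Its log2 signals were 5.7, 5.02, 5.18 and 5.0 with DMSO, 8.52, 9.68, 9.13 and 9.79 with A and 6.98, 6.34 and 6.79 with B. In the presence of IAA they were 5.19, 5.11, 5.04 and 5.27 with IAA alone, 9.14, 9.04 and 8.16 with A and 5.19, 5.66 and 5.98 with B. All A arrays lay above all B arrays, whereas IAA/B 1 lay within the IAA arrays. The mean with A was 16.6-fold that with DMSO and 5.95-fold that with B (log2 differences 4.05 ± 0.26 and 2.57 ± 0.28).

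AT1G53540 encodes a class I small heat shock protein. It carries no HSP symbol in the tables at hand and so was kept, as were 3 more small heat shock protein genes. Its signals were 7.93, 4.85, 6.41 and 5.97 with DMSO, 10.7, 10.69, 10.57 and 11.15 with A and 10.13, 8.4 and 8.71 with B. The DMSO arrays spread over more than 3 log2 units, with DMSO 1 the highest, and the B array B 1 stood apart from B 2 and B 3. Alongside IAA the gene had 5.34, 6.8, 5.84 and 5.96 without a compound, 10.52, 10.81 and 9.92 with A and 7.75, 7.81 and 8.04 with B. Arrays with A did not overlap arrays with B within either set, without or with IAA. The difference between A and DMSO was 4.49 ± 0.47, the largest of the named members, and that between A and B 1.7 ± 0.51.

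Fes1A binds Hsp70 and is known from Arabidopsis as a factor of acquired thermotolerance. It had tight values of 8.04, 7.93, 8.32 and 7.96 with DMSO and 11.5, 11.49, 11.25 and 11.25 with A, and values of 10.52, 9.74 and 9.62 with B. With IAA the signals were 8.31, 8.25, 8.25 and 8.23 alone, 11.16, 11.22 and 10.83 with A and 9.4, 9.62 and 9.72 with B. The groups were fully separated in both sets, in the order solvent, B, A. The gene was 9.92-fold higher with A and 3.72-fold higher with B than with DMSO.

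The other small heat shock protein genes differed from DMSO by 3.22 with A and 2.29 with B for AT1G54050, by 3.0 and 2.09 for AT5G37670, whose product is peroxisomal, and by 1.92 and 1.02 for AT2G19310. In AT5G37670 the array B 1, at 8.87, lay above 3 of the 4 A arrays. A probe set shared by the genes AT1G59860 and AT1G07400, which cannot be told apart by it, stood 4.21 above DMSO with A and 2.78 with B. Of the other DnaJ-domain genes, AT2G20560 had differences of 2.83 with A and 2.0 with B, and AT3G14200 of 1.5 and 0.66. SGT1A, a co-chaperone of immune receptors, had a difference of 1.02 with A and of only 0.17 with B. AT1G30070, which carries the SGS domain of SGT1-like proteins, had 2.18 and 1.01, and AT1G66080, a relative of the Hsp70 carrier Hikeshi, 1.62 and 0.71. The ratio of the B to the A difference thus varied within the chaperone group, from SGT1A, close to the solvent with B, to AT2G20560 and the small heat shock proteins, where the B difference came to the larger part of the A difference.

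Regulators of transcription contributed 7 named genes, with a median difference of 1.62 between A and DMSO and 0.24 between B and DMSO. AT3G53600 encodes a C2H2 zinc finger protein. Its signals were near the bottom of the scale without A, 4.43, 4.07, 4.31 and 3.99 with DMSO, 4.83, 4.38, 4.09 and 4.23 with IAA, 4.22, 4.09 and 4.07 with B and 4.3, 4.03 and 4.18 with IAA/B. With A they were 6.21, 6.54, 5.54 and 4.99, and with IAA/A 6.26, 6.08 and 5.44. The A arrays ranged over more than 1.5 log2 units but all lay above every array without A. The difference between A and B, 1.69 ± 0.27, was as large as that between A and DMSO, 1.62 ± 0.25, within the error.

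HYH is a bZIP factor and the closest homolog of HY5, which promotes photomorphogenesis, the development of seedlings in light. Its signals were 5.88, 5.69, 5.52 and 7.49 with DMSO, 8.07, 6.39, 8.2 and 8.09 with A and 6.58, 5.93 and 5.64 with B. In the presence of IAA they were 6.39, 6.31, 5.98 and 5.95 alone, 7.45, 7.14 and 8.21 with A and 7.89, 5.52 and 5.64 with B. Single arrays broke the pattern: DMSO 4 and IAA/B 1 were as high as arrays with A, and A 2 was as low as arrays without it. These 3 arrays are among the 4 that lay outermost on that component, whose part in the result was not tested. Without DMSO 2, DMSO 4, A 2 and IAA/B 1, HYH was 2.42 higher with A than with DMSO, against 1.54 ± 0.5 with all arrays, and 2.02 higher with IAA/A than with IAA/B, against 1.25 ± 0.58.

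The AP2/ERF genes AT2G33710 and AT1G19210 had differences from DMSO of 2.15 and 1.08 with A, and of 0.72 and 0.24 with B. The GRAS gene AT2G29065 stood at 2.05 with A and 0.82 with B. Of the genes with a VQ motif, which marks partners of WRKY factors, AT2G22880 had differences of 2.58 and 1.69, and AT5G46780 of 0.99 and 0.05. The DMSO arrays of AT2G22880 ran from 5.23 to 8.66, the third largest spread of the named members within any group.

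Genes of immune receptors and resistance numbered 4. AT1G66090 encodes a TIR-NBS protein and lies next to AT1G66080 in the order of genes, the only neighbouring pair among the named members. It had 6.85, 6.17, 4.91 and 6.0 with DMSO, 8.14, 8.46, 7.96 and 8.32 with A and 7.18, 6.46 and 6.49 with B. With IAA it had 5.5, 5.62, 5.42 and 5.08 alone, 8.21, 8.13 and 7.99 with A and 6.2, 6.58 and 6.49 with B. The arrays with A were all above the arrays with B, and DMSO 1 reached into the range of B. AT3G48450, of the RIN4-like NOI family, had 5.05, 5.15, 4.83 and 4.98 with DMSO, 7.5, 7.03, 7.58 and 7.45 with A and 5.98, 5.73 and 6.15 with B. In the IAA set it had 5.69, 5.27, 5.23 and 5.4, then 7.28, 7.42 and 7.07 with A and 5.63, 5.96 and 5.84 with B. Within each set the order from solvent to B to A held without overlap, except that IAA 1, at 5.69, lay above IAA/B 1, at 5.63. AT5G51630, another TIR-NBS gene, had differences from DMSO of 1.39 with A and 0.58 with B, and AT3G55840, a relative of the beet nematode resistance gene Hs1pro-1, of 1.46 and 0.26. A probe set shared by the TIR-NBS genes AT5G41750 and AT5G41740 stood 1.92 above DMSO with A and 1.09 with B.

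Protein turnover was represented by 4 named genes. The RING-type ligase genes AT1G14200 and AT1G26800 had differences of 2.95 and 1.77 with A and of 2.24 and 1.02 with B. AT4G15420, of the UFD1 family, had 1.29 with A and 0.59 with B, and AT3G07090, of the PPPDE peptidase family, 1.33 and 0.41. All 4 exceeded the B value with A by less than 1 log2 unit.

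The EF-hand genes AT3G01830 and AT1G21550 carry no CML symbol in the tables at hand and were kept. AT3G01830 had 5.5, 4.59, 3.81 and 4.13 with DMSO, 6.78, 6.38, 7.0 and 5.88 with A and 5.17, 5.16 and 5.19 with B. With IAA the signals were 4.4, 3.83, 3.88 and 3.89 alone, 6.49, 6.5 and 6.57 with A and 5.25, 5.17 and 4.99 with B. The B arrays agreed closely, but DMSO 1 was above them, so that DMSO and B overlapped while A stood clear of both. AT1G21550 had differences from DMSO of 1.74 with A and 0.35 with B.

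Metabolic enzymes formed a group of 10 named genes, with a median of 1.24 between A and DMSO and 0.06 between B and DMSO. BGLU28 and BGLU27 encode beta-glucosidases, which release aglycones from glucosides. BGLU28 had 5.49, 5.2, 5.26 and 5.5 with DMSO, 7.65, 7.61, 7.59 and 8.24 with A and 7.19, 5.93 and 6.13 with B. With IAA it had 5.41, 5.11, 5.11 and 5.39 alone, 7.26, 7.15 and 7.21 with A and 5.42, 5.83 and 5.64 with B. B 1 lay more than 1 log2 unit above B 2 and B 3 and still below every A array. BGLU27 had 4.95, 4.74, 4.68 and 4.66 with DMSO, 6.81, 6.93, 6.44 and 6.66 with A and 5.06, 4.92 and 4.78 with B, so that B stayed near the solvent and A did not.

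CCR2, a cinnamoyl-CoA reductase of the route to lignin precursors, had differences from DMSO of 3.19 ± 0.13 with A and 2.06 ± 0.14 with B, and its groups did not overlap. AT5G25450, a subunit of the mitochondrial cytochrome bc1 complex, stood at 1.64 and 0.4, the latter 0.03 without B 1. AT5G15950, an S-adenosylmethionine decarboxylase of polyamine synthesis, had 0.94 and -0.11, and AT5G15870, a glycosyl hydrolase, 0.81 and -0.04. The glutaredoxin-family gene AT1G64500 had 0.91 with A and -0.13 with B without IAA, and 1.63 and 0.68 in its presence. Without DMSO 2, DMSO 4, A 2 and IAA/B 1 it was 1.7 higher with A than with DMSO. AT1G26380, which encodes an oxidase like the berberine bridge enzyme, had the least certain values. Its signals were 8.97, 9.65, 5.23 and 5.92 with DMSO, 9.98, 9.65, 7.92 and 7.68 with A and 7.8, 6.36 and 5.69 with B. DMSO 1 and DMSO 2 were as high as A arrays and DMSO 3 and DMSO 4 as low as B arrays, and the difference between A and DMSO was 1.36 ± 0.81.

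Of the 18 named members with no role given, AT5G12340 had group means with B that differed from the solvent by -1.32 without IAA and by -0.67 with it. It had 7.68, 6.83, 5.97 and 5.58 with DMSO, 9.04, 8.53, 8.42 and 7.49 with A and 5.6, 4.95 and 5.05 with B. With IAA it had 6.64, 6.23, 5.97 and 5.97 alone, 7.98, 8.02 and 8.03 with A and 5.64, 5.55 and 5.41 with B. The B arrays overlapped DMSO at B 1 and DMSO 4, and A 4 overlapped DMSO 1. The mean with A was 9-fold that with B (log2 difference 3.2 ± 0.37), the widest gap between both compounds without IAA among all members. Values below DMSO with B were found for 26 members, values below IAA with IAA/B for 8, and both for 5.

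AT5G44350 had 6.27, 6.03, 6.42 and 6.66 with DMSO, 7.51, 7.15, 8.19 and 8.26 with A and 6.21, 6.22 and 6.32 with B. With IAA it had 6.39, 6.05, 6.21 and 6.25 alone, 8.2, 7.83 and 7.87 with A and 6.17, 6.28 and 6.11 with B. The arrays with B lay inside the range of those without a compound. AT5G35320 had 7.75, 7.79, 7.84 and 8.01 with DMSO, 9.86, 10.26, 9.69 and 10.19 with A and 9.16, 8.33 and 8.34 with B. With IAA it had 7.75, 7.74, 7.63 and 7.44 alone, 9.88, 9.96 and 9.58 with A and 8.25, 8.23 and 8.49 with B. Here solvent, B and A followed each other without overlap, with B 1 far above B 2 and B 3. Further genes without a stated role are given by their differences from DMSO. AT4G28085 stood 3.03 above DMSO with A and 1.7 with B, AT5G05220 2.88 and 2.08, and AT1G35210 2.16 and 1.02. For AT4G24380 these differences were 2.03 and 0.82, and for AT2G25735 1.93 and 1.01. AT4G38940, a kelch-repeat gene, had 1.41 and 0.51, AT5G58680, an armadillo-repeat gene, 1.27 and 0.31, and AT1G72660, which encodes a GTP-binding protein, 1.45 and 0.68. In AT1G72660 the B arrays were 7.13, 5.35 and 5.42, and without B 1 the difference between B and DMSO was 0.09 and that between A and B 1.35 in place of 0.77. AT5G10695 had the largest difference with B among the named genes after AT1G53540, 2.58, against 3.29 with A. AT1G65490 had 8.58, 7.81, 6.73 and 9.72 with DMSO and 9.66, 7.77, 9.31 and 9.86 with A, overlapping groups in which DMSO 4 and A 2 broke the order, and a difference of 0.94 ± 0.63. Its B arrays were 7.53, 6.4 and 6.42, so that A exceeded B by 2.37. Its IAA/B arrays were 9.27, 6.26 and 6.16, with IAA/B 1 far above the others.

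**Figure D3:**
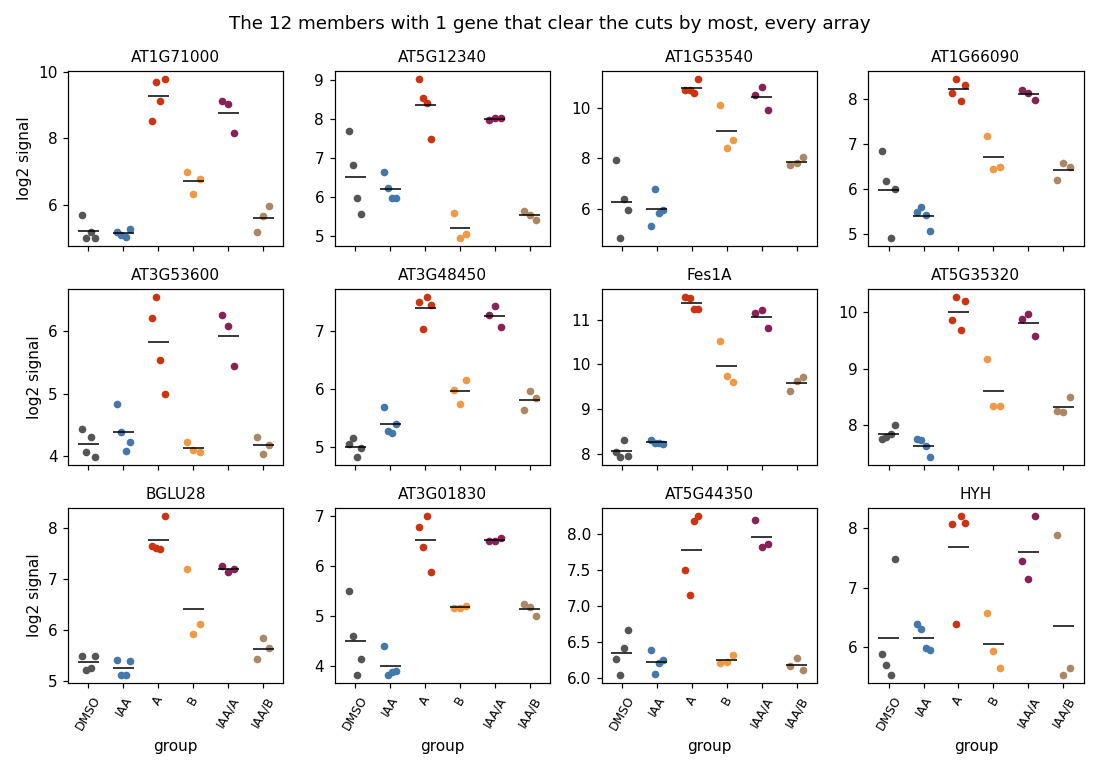
Log2 signal (vertical axis, a separate scale in each panel) in every array of the 12 members with 1 gene that clear the cuts by the widest margin; points are arrays and lines are group means. The A and IAA/A arrays are high in all panels, and single arrays depart from their group in HYH, where A 2 is 6.39 and IAA/B 1 is 7.89.

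Members varied more between arrays of a group than most probe sets did. Within the DMSO arrays the median SD of a member was 0.38 log2 units, against 0.15 over all probe sets, and within the A and B arrays it was 0.31 and 0.33, against 0.14 and 0.11. It was smaller with IAA (0.15, against 0.09), with IAA/A (0.21, against 0.09) and with IAA/B (0.2, against 0.11). The array B 1 was the highest of the B arrays for 119 of the 129 members (92.2%) and for 38.8% of all probe sets. Its members stood a median of 0.34 above the group mean, and those of B 2 and B 3 a median of 0.19 and 0.17 below it. Without B 1 the median difference between A and B was 1.28 in place of 1.08, and that between B and DMSO 0.43 in place of 0.61. Members at least 0.8 above DMSO with B were then 40 in place of 50, and those below DMSO 32 in place of 26. For 2 named members, AT1G72660 and AT5G37670, the difference between A and B was over 1.5 times larger without B 1. Among the DMSO arrays, DMSO 4 was the highest for 59 members and DMSO 1 for 49, while DMSO 2 and DMSO 3 were so for 15 and 6.

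The deviations of 19 members from their group means followed the first component of the residuals with a correlation of at least 0.8 (14.7% of members, 2.38% of all probe sets), and those of 0 members with one of -0.8 or below (2.66% of all). This component was computed from all probe sets on the same 21 arrays, so the correlations are descriptive. The named genes among the 19 are HYH, AT3G56290, AT1G64500, AT5G15950 and AT4G19460. Without the 4 arrays outermost on it, the median difference over the members was 1.89 between A and DMSO, 1.19 between A and B and 1.22 between IAA/A and IAA/B.

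**Figure D4:**
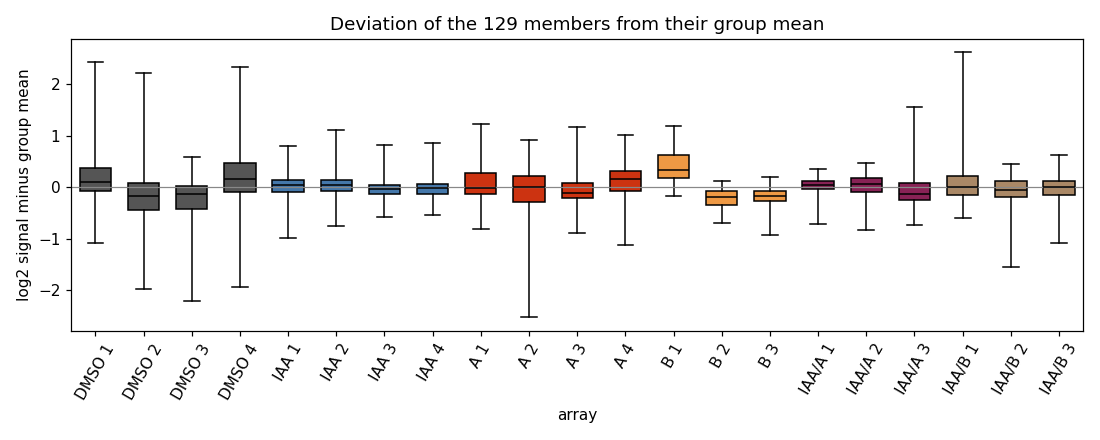
Log2 signal of the 129 members minus the mean of their group, for each of the 21 arrays; boxes are quartiles with the median, and whiskers reach the lowest and highest member. B 1 lies above the B mean with a median of 0.34, and A 2 has the lowest single deviation, -2.53.

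Whether auxin changed these genes was asked with 3 comparisons that the cuts did not use, although the same arrays entered the cuts. In IAA against DMSO, 2 of the 129 members passed limma's test at an adjusted p of 0.05, where 1.91% of all probe sets did, and both were lower with IAA, as 0.479% of all probe sets were. A probe set with no gene listed fell by 0.77 ± 0.16 log2 units (adjusted p = 0.0105), and the VQ-motif gene AT5G46780 fell by 0.55 ± 0.14 (adjusted p = 0.0394). AT5G46780 had 8.37, 8.3, 7.94 and 8.43 with DMSO and 7.47, 7.61, 7.87 and 7.9 with IAA, groups that did not overlap. Neither passed without IAA 2, the array whose record names another treatment, nor without IAA 1. The median member was 0.16 log2 units lower with IAA, and 86 members (66.7%) were below 0, against -0.003 and 51.2% over all probe sets. The mean over the members was 6.96 and 6.98 in DMSO 1 and DMSO 4, 6.55 and 6.50 in DMSO 2 and DMSO 3, and 6.54 to 6.63 with IAA. The part of DMSO 1 and DMSO 4 in this shift was not tested. Unadjusted p-values under 0.05 were found for 13 members (10.1%) and for 11.3% of all probe sets. Arrays did not overlap for 11 members lower with IAA (3.26% of all) and 2 higher (4.33%). Without IAA 2 the median member was 0.16 lower with IAA, 92 members were below 0, unadjusted p-values under 0.05 were found for 10, and arrays did not overlap for 14 members lower and 3 higher.

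In the presence of A, IAA lowered 1 member, BGLU27, where 0.831% of all probe sets were called in IAA/A against A, and 0.0747% of all were called lower. BGLU27 had 6.81, 6.93, 6.44 and 6.66 with A and 6.17, 5.82 and 5.85 with IAA/A, and fell by 0.76 ± 0.11 log2 units (adjusted p = 0.000511 in limma). With only the arrays of both groups in the model it did not pass (adjusted p = 0.0682). Every IAA/A array lay below every A array, yet all remained above every array with DMSO, IAA, B or IAA/B. The median member was 0.19 lower with IAA/A than with A, and 102 members (79.1%) were below 0, against -0.02 and 57.4% over all probe sets. Arrays did not overlap for 14 members lower with IAA/A (5.06% of all) and 2 higher (3.58%). The count with unadjusted p under 0.05 was 14 (10.9%), against 8.04% of all probe sets. In the presence of B, limma called 0 members, where 1.24% of all probe sets were called. Unadjusted p-values under 0.05 were found there for 21 members (16.3%), against 8.29% of all probe sets, and 85 members (65.9%) were below 0, against 55.9% of all. B 1 was the highest B array for 119 of the 129 members. The mean over the members was 7.94 in B 1, 7.33 and 7.37 in B 2 and B 3, and 7.57, 7.25 and 7.31 with IAA/B. The part of B 1 in these counts was not tested. In IAA/B against B, AT1G71000 had the lowest adjusted p of the named members, 0.102, for a difference of -1.10 ± 0.30.

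The differences made by A without and with IAA were both held to at least 0.8 by the cuts, so how they compare is given without a test. Of the members, 68 had a smaller difference with A in the presence of IAA and 61 a larger one, with a median change of -0.03 over the members and -0.02 over all probe sets. BGLU27 was 1.95 higher with A than with DMSO and 1.24 higher with IAA/A than with IAA.

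**Figure D5:**
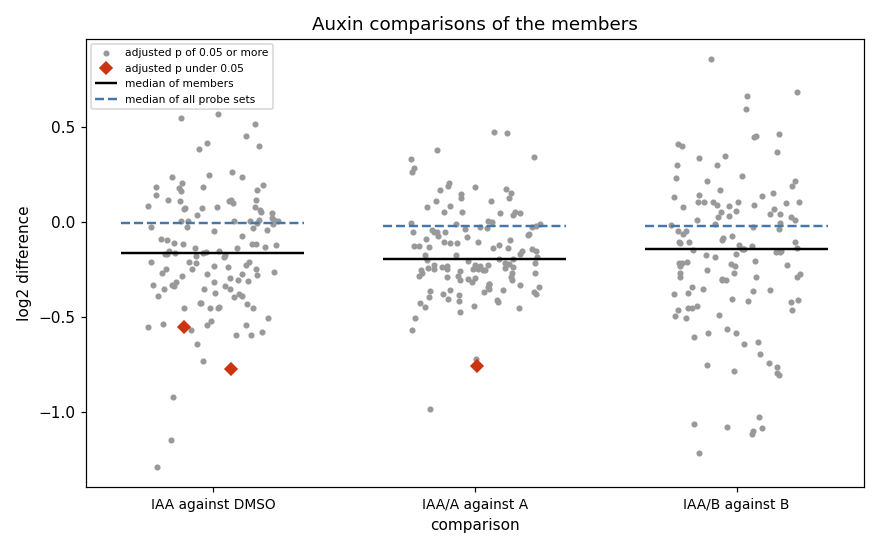
Log2 difference of each member (points) in the 3 auxin comparisons; diamonds passed an adjusted p of 0.05, solid lines are medians over the members and dashed lines medians over all probe sets. The members' medians lie at -0.16, -0.19 and -0.14, and 3 points passed.

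Other genes of the stress and hormone pathways were read from 24 lists of 586 genes, chosen with earlier results of these data known. Some lists had no probe set paired with 1 gene, namely C2H2 and CCCH zinc fingers, NAC factors, MYB factors and ethylene synthesis. Nor had MAP kinase signalling, calcium signalling outside the CML family, indole and camalexin metabolism, or osmolytes and raffinose. These lists were thus not read. Over all lists, 53 probe sets were measured with 1 gene, 13 of them on the auxin response list. Among the 53, Fes1A is a member and was not counted. In A against B, 5 of the other 52 passed the limma test, all higher with A, where 6.37% of all probe sets were called, 4.23% higher and the rest lower. They were WRKY6, a senescence and defence factor, higher by 0.84 ± 0.23 (adjusted p = 0.0348), the glucosyltransferase gene UGT71C1 by 0.79 ± 0.17, the auxin-conjugating enzyme gene WES1 by 0.74 ± 0.18, and the root-hair expansins EXPA7 by 2.09 ± 0.22 and EXPA18 by 2.25 ± 0.31. In IAA/A against IAA/B, 6 of the 52 passed, where 2.82% of all were called. Higher with IAA/A were ORA47, an AP2/ERF factor of jasmonate synthesis (1.24 ± 0.26), UGT71C1 (0.97 ± 0.18), EXPA7 and EXPA18, and lower were the lateral root factors LBD16 (-1.08 ± 0.19) and LBD29 (-1.35 ± 0.25). None of these passed the cuts. EXPA7 had a mean of 7.97 with A, 7.83 with DMSO and 5.88 with B, and EXPA18 one of 8.02 with A, 8.27 with DMSO and 5.77 with B. UGT71C1 had means of 8.56 with A, 8.84 with DMSO and 7.77 with B, and WES1 of 8.65, 8.70 and 7.91. In these genes and the expansins, the gap between the compounds thus came with a low value with B. The members were held by the cuts to at least 0.8 above DMSO with A, so the same comparison says nothing about them. Of the 129 members, 26 were also below DMSO with B. WRKY6, with means of 10.5, 7.85 and 9.63, was above DMSO with both compounds. ORA47 was above DMSO with A (6.18, against 5.44) and near it with B (5.46).

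The array means over the 5 measured root markers were lower with B and not with A. They were 10.42 to 11.04 with DMSO, 10.51 to 11.04 with A, 9.65 to 10.0 with B, 10.7 to 10.9 with IAA/A and 9.82 to 9.88 with IAA/B. EXPA7 and EXPA18 were 2 of the 5, whereas PYK10, JAL33 and JAL34 were higher with A than with B by 0.07, 0.07 and 0.02 without IAA and by 0.1, 0.5 and 0.2 with it. The part of these markers in the members' difference between A and B was not tested.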

How the data were processed

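Affymetrix ATH1 signals were used as the authors deposited them, on the log2 scale from 3.02 to 13.9; the probe summary and normalisation are not given in the sources used. No further transformation or pseudocount was applied. Of 22810 probe sets, 64 controls were left out. GEO's platform annotation paired 13513 of the other 22746 with 1 gene, 503 with several and 8730 with none; symbols came from the RefSeq table. Groups follow the sample labels. All 21 arrays entered a single limma model (version 3.58.1, R 4.3.3; lmFit, eBayes with the intensity trend, two-sided) with a mean for each group, with Benjamini-Hochberg adjustment over all probe sets at 0.05.

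The members and lists were chosen with earlier results of these data known. For the members, differences the cuts used, and those derived from them, carry no test; list genes that are not members were tested. Values in every array are given for the 12 members with 1 gene and the widest smallest margin over the cuts and for list members. Values in the arrays of some groups are given for further genes, among them BGLU27, AT5G46780, AT1G26380 and AT1G65490. Of these the last pair was chosen after the values were seen. Simulated data had 200 changed probe sets drawn at random from all. In IAA against DMSO, 66% of those of size 0.5 (log2) and 96% of those of size 1 were found, beside 10 false calls. The members varied more between arrays than most probe sets, so these shares do not describe the members. The model did not pair arrays by replicate number. Of 48 pairs of arrays with the same number in different groups, 15 correlated above 0.1 in their deviations (range -0.43 to 0.54). Between DMSO and A the correlations were -0.06, 0.40, 0.24 and 0.54 for replicates 1 to 4. Arrays with unlike numbers were not compared, so whether the numbers pair the arrays was not settled.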

Additional observations from a re-analysis of the deposited data

Results flagged for a closer look

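For the genes given array by array and the mean over the members, the 51 groups of 4 arrays were examined, and 3 held an array far from the others; chance gives about 1 such group in 20. BGLU28 was 8.25 in A 4 and 7.59 to 7.65 in the other A arrays. AT3G01830 was 4.4 in IAA 1 and 3.83 to 3.89 in the other IAA arrays. HYH was 6.39 in A 2 and 8.07 to 8.20 in the other A arrays.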

How the results depend on the processing

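The members numbered 129, and 76 with all cuts raised by 0.2, 234 with them lowered by 0.2 and 111 to 143 without any one array; 78 were kept whichever array was left out, and 51 were lost without at least 1. In IAA against DMSO, 2 members were called, and 0 with only the arrays compared, with array weights or without DMSO 2, DMSO 4, A 2 and IAA/B 1; without any one array the count was 0 to 3, with 0 without IAA 1 or IAA 2. Over the alternatives the adjusted p of AT5G46780 reached 0.347 and that of the other member 0.163. In IAA/A against A the count of 1 became 0 among the brightest 60% of probe sets, which do not include BGLU27, 0 with only the arrays compared and 3 with array weights, and was 1 to 2 without any one array; the adjusted p of BGLU27 reached 0.0682. In IAA/B against B the count of 0 became at most 3, without B 2. For the lists, whose alternatives were chosen after seeing the data, the count in A against B was 5, with 8 under array weights and 11 without the 4 arrays, and that in IAA/A against IAA/B 6, with 14 under array weights and 10 without the 4 arrays. With the replicate number as a block the counts were 3, 1 and 0 in the 3 auxin comparisons and 6 and 8 for the lists. The list counts under the alternatives may include Fes1A, which the counts of 5 and 6 leave out. The median change of the A difference with IAA, given without a test, was -0.1 to 0.06 without any one array. The cause of these changes was not tested. A batch block was not run, because the array records hold a single chip lot and no scan times.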

Other observations

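The named members came from short genes, with a median gene length of 1428.5 bp over 56 genes, against 2105 bp over the 13286 tested genes with a length in the RefSeq table. This is a description of the named members, and no test was made. The 73 members without 1 gene had a median difference of 1.84 between A and DMSO and of 1.13 between A and B, and the highest single difference from DMSO, 4.93, was among them. The probe set shared by AT1G66500 and AT5G43620 stood 2.64 above DMSO with A and 0.31 with B.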
